A study of Arabidopsis thaliana with 6 samples.

Results

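The 10 genes described here are regulators of the iron deficiency response of Arabidopsis and 1 ferritin gene: OPT3, bHLH38, bHLH39, bHLH100, bHLH101, FIT, FRO3, PYE, BTS and FER1. They were chosen by their gene codes from a count table of 32313 codes, and all 10 had enough reads to be tested. RNA was sequenced from whole seedlings of the Columbia ecotype in 2 groups of 3 libraries. The first group was BP12-2, which the labels call a TOR knockdown line, TOR being the target of rapamycin kinase, and the second was the wild type (WT). BP12 plants carry a yeast FKBP12 protein through which rapamycin can inhibit TOR. Seedlings of both groups were moved 15 days after germination onto 0.5 MS medium that held rapamycin at 10 µg/ml and stayed there for 3 days, so the drug was shared by BP12-2 and WT. Only 1 BP12 line was sequenced, and seedlings on the DMSO control medium were not analysed here. Whether replicates were grown separately is not stated in the labels, so the p-values here describe only how far these samples varied, possibly for technical reasons alone.

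Plants take up iron in the root epidermis after reducing ferric iron at the cell surface, and they store surplus iron in plastid ferritins. When iron is short, bHLH factors of subgroup IVc switch on the group Ib factors bHLH38, bHLH39, bHLH100 and bHLH101, which pair with FIT to activate the uptake genes. BTS, an E3 ubiquitin ligase with hemerythrin domains, and PYE, a bHLH repressor, hold the response in check, and OPT3, a transporter of the phloem, carries iron and information on the iron state of the shoot towards the root. Transcripts of FIT, the group Ib factors, BTS, PYE, OPT3 and the mitochondrial ferric reductase FRO3 are known to accumulate under iron deficiency, while FER1 transcripts accumulate under iron excess.

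The bHLH factors of this network bind E-box sequences, among them the G-box CACGTG, and many of the genes are controlled at their promoters. The 250 bases before the annotated start were therefore read for each gene on its own strand from the RefSeq sequence and annotation of the TAIR10.1 assembly. The G-box, which reads the same on both strands, was found in 4 of the 10 windows, those of bHLH38, bHLH100, OPT3 and BTS, and was absent from 6. Over all genes with such a window, 1883 of 31785 (5.92%) held it. The evening element AAAATATCT, searched on both strands as a clock-related motif, was in 0 of the 10 windows and in 2.22% of all. The 4 windows with a G-box are shown 5′ to 3′ with the G-box in capitals, followed by that of bHLH39, the neighbouring gene of bHLH38, which has none.
bHLH38: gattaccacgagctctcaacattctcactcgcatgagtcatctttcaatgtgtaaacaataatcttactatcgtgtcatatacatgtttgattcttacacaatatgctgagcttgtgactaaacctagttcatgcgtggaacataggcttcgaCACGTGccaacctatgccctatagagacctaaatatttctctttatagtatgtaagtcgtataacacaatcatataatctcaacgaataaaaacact
bHLH100: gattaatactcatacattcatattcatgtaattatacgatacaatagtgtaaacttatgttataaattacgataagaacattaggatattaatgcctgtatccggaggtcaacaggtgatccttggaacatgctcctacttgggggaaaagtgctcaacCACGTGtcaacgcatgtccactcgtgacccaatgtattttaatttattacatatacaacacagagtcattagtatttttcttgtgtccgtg
OPT3: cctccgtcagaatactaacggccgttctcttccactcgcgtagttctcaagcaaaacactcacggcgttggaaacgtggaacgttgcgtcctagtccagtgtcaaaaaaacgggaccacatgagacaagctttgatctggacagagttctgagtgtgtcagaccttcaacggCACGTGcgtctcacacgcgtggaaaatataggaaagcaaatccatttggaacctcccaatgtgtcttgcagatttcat
BTS: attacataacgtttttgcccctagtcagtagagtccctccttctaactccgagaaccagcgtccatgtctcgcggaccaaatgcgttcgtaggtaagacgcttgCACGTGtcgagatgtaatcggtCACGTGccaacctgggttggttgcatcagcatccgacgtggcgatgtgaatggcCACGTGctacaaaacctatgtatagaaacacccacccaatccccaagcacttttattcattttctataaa
bHLH39: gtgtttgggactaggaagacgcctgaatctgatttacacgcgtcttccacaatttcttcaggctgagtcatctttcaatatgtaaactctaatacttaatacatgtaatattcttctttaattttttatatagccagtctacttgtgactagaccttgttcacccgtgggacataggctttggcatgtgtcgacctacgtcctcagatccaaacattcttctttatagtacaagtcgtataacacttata

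The bHLH38 window is chr3:21085246-21085495 on the minus strand, and its G-box begins 97 bases before the start. The bHLH100 window is chr2:17199455-17199704 on the minus strand, with the G-box 91 bases before the start, and the OPT3 window is chr4:9250344-9250593 on the minus strand, with the G-box 78 bases before the start. The BTS window, chr3:6273716-6273965 on the plus strand, holds 3 G-boxes, which begin 146, 124 and 70 bases before the start. The bHLH39 window is chr3:21087711-21087960 on the minus strand. The G-box of bHLH38 and the middle one of BTS share their flank as well: the 13 bases CACGTGCCAACCT, a run chosen after these windows were seen, were found in 2 of the 31785 windows, and those 2 belong to bHLH38 and BTS. A match describes the letters of a window and not a bound site.

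In these genes 1 library, WT replicate 3, stood apart, so the fold change of each of the 10 genes is given with and without it. Results for other iron genes rest on all 6 libraries unless stated. It was the highest library for 8 of the 10 genes (80%), against 16.3% of all 19436 genes tested. Relative to the mean of each gene over the 6 libraries, the median of the 10 genes was -0.10, -0.08 and -0.29 on the log2 scale in the BP12-2 libraries and -0.48, -0.22 and 0.99 in the WT libraries (here and below, a group's values run from replicate 1 to replicate 3). WT replicate 3 and BP12-2 replicate 1 also differed from the other 4 libraries in clock transcripts. LHY, a morning factor of the clock, was at 23.2, 193 and 179 CPM (read counts scaled to a common library size with TMM factors) in BP12-2, and at 172, 140 and 27.0 CPM in WT. PRR7, which peaks later in the day, was at 212, 83.9 and 82.6 CPM in BP12-2 and at 77.7, 92.2 and 208 CPM in WT. The values of these 2 libraries are set side by side after the single genes.

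The BP12-2 libraries held 10322303, 6706610 and 17092773 counted reads, and the WT libraries 7611017, 13544765 and 16371859. TOR itself had a fitted log2 ratio of -0.22 ± 0.10 (SE, n = 3 each) in BP12-2 over WT, short of the threshold (edgeR quasi-likelihood adjusted p = 0.292). Summed over 6 leaf mesophyll markers, transcripts were at 38521 to 40621 CPM in BP12-2 and at 29653 to 31742 CPM in WT, and 13 root markers summed to 315 to 363 CPM in BP12-2 and 258 to 348 CPM in WT. The 4 phloem markers summed to 384 to 463 CPM in BP12-2 and 393 to 497 CPM in WT, and 3 markers of pollen and anther to 9.18 to 16.4 CPM in BP12-2 and 5.48 to 8.89 CPM in WT. Nearly all of the pollen and anther sum was TPD1, while LAT52-like and PTEN1 held at most 2 reads in a library. In these 4 lists 0 markers were at 0 in every library. A code in the column headers differs between the groups. Its meaning is not given, and genotype and code cannot be told apart.

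Of the 10 genes 0 passed the edgeR quasi-likelihood test at an adjusted p of 0.05 over all genes, against 13 of the 19436 genes tested (0.0669%), and 1 of the 10, OPT3, had an unadjusted p under 0.05, as did 18.2% of all genes tested. In 0 of the 10 did the BP12-2 libraries lie wholly above or below the WT libraries, where 24.3% of all genes tested were separated in this way. Fitted changes were negative for 8 genes and positive for FIT and FER1, with a median log2 fold change of -0.43 against 0.01 for all genes tested. Without WT replicate 3 the median was 0.35. DESeq2, the edgeR exact test and limma voom also called 0 of the 10, where they called 3.19%, 4.33% and 0.113% of the genes tested. Without WT replicate 3 the quasi-likelihood test called 0 of the 10 and 0.0103% of the genes tested, without WT replicate 1 it called 0 and 0.282%, and among the 4 libraries that share a clock pattern 0 and 0.197%. With a term for the clock pattern it called 0 of the 10 and 5.1% of the genes tested. In RNA from whole seedlings, fewer cells of a type and less RNA per cell cannot be told apart.

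**Figure D1:**
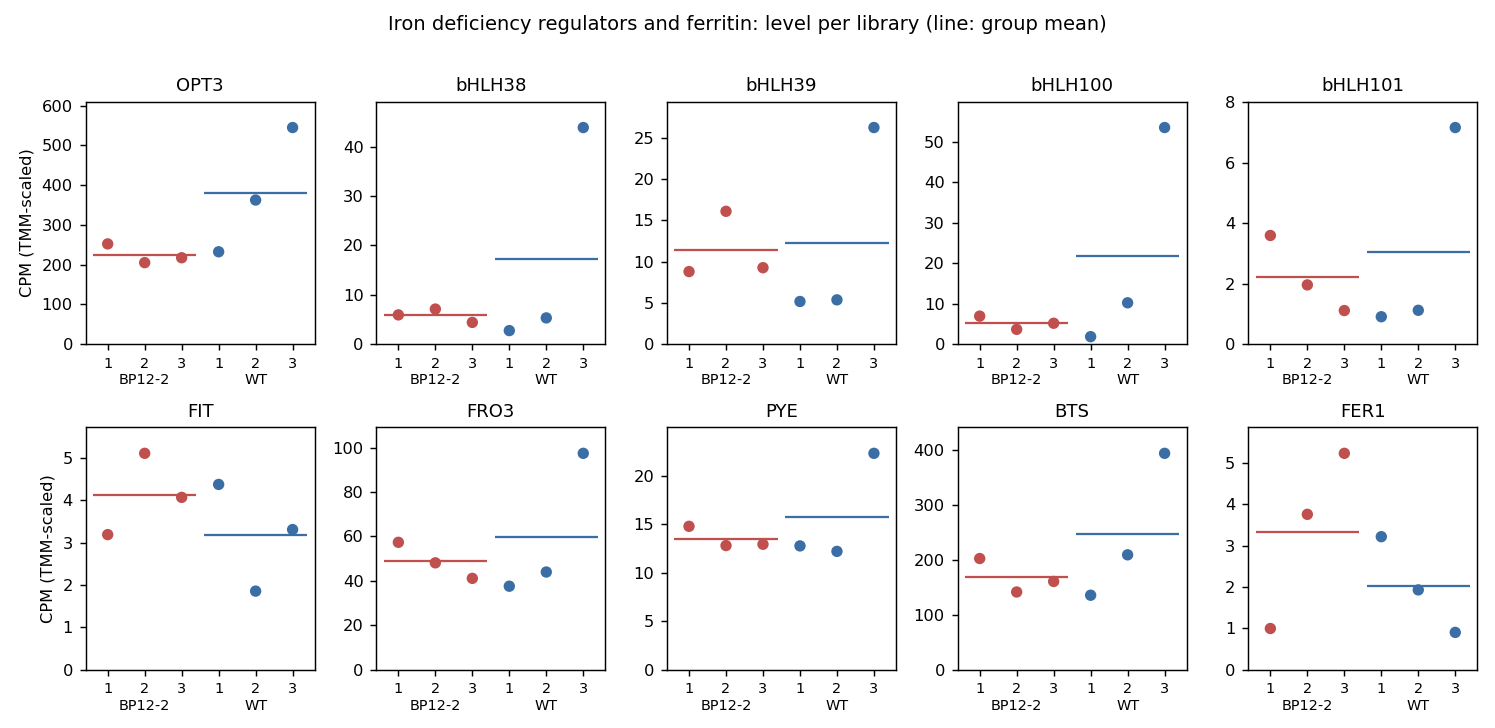
Level of each of the 10 genes in each library, in TMM-scaled CPM on a linear axis from 0, with BP12-2 in red and WT in blue; horizontal lines are group means. WT replicate 3 is the highest point in every panel except those of FIT and FER1.

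The 4 group Ib factor genes had their highest level in WT replicate 3. bHLH38 (AT3G56970, chromosome 3, 21084035 to 21085245, minus strand, TAIR10.1 as for all positions here) was at 5.89, 7.07 and 4.36 CPM in BP12-2, and at 2.70, 5.28 and 43.8 CPM in WT. The BP12-2 libraries lay close together and above or among WT replicates 1 and 2, while WT replicate 3 lay 6.20-fold above the next highest library. It rested on 728 reads there, against 59, 47 and 75 reads in BP12-2 and 21 and 71 reads in WT replicates 1 and 2. On the log2 scale BP12-2 over WT was -1.68 ± 0.92 (SE with n = 3 in each group; edgeR quasi-likelihood adjusted p = 0.381), and without WT replicate 3 it was 0.44 ± 0.33 (adjusted p = 0.568). The sign thus turned with 1 library.

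bHLH100 (AT2G41240, chromosome 2, 17198037 to 17199454, minus strand) was at 6.89, 3.61 and 5.12 CPM in BP12-2, and at 1.80, 10.2 and 53.5 CPM in WT. All 3 BP12-2 libraries fell between WT replicates 1 and 2, and WT replicate 3 was 5.26-fold above the next highest library. On the log2 scale the change was -2.09 ± 0.95 (edgeR quasi-likelihood adjusted p = 0.298) and -0.27 ± 0.58 without WT replicate 3 (adjusted p = 0.863). bHLH38 and bHLH100 were among the 26 genes of 19436 (0.134%) that were over 2-fold above every other library in WT replicate 3. Both windows hold a G-box, as do those of OPT3 and BTS, which were not among the 26. AT1G47400, AT1G47395 and AT2G30766, listed regulators also among the 26, have none in their windows.

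bHLH39 (AT3G56980, chromosome 3, 21086390 to 21087710, minus strand), which lies next to bHLH38, was at 8.78, 16.1 and 9.25 CPM in BP12-2, and at 5.15, 5.35 and 26.3 CPM in WT. Each BP12-2 library lay above WT replicates 1 and 2 and below WT replicate 3. The log2 fold change was -0.19 ± 0.62 over all libraries (edgeR quasi-likelihood adjusted p = 0.907), and 1.08 ± 0.30 without WT replicate 3 (adjusted p = 0.205). Among BP12-2 replicates 2 and 3 and WT replicates 1 and 2, which share a clock pattern, it was 1.20 ± 0.29 (adjusted p = 0.113).

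bHLH101 (AT5G04150, chromosome 5, 1138410 to 1139633, minus strand) was the least abundant of the 4, at 3.59, 1.96 and 1.11 CPM in BP12-2, and at 0.902, 1.11 and 7.17 CPM in WT. BP12-2 replicate 1 was the highest of its group and WT replicate 3 the highest of all, and BP12-2 replicate 3 and WT replicates 1 and 2 lay together near the low end. As a log2 ratio, BP12-2 over WT was -0.64 ± 0.80 (edgeR quasi-likelihood adjusted p = 0.721) and 1.04 ± 0.57 without WT replicate 3 (adjusted p = 0.433).

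Per kilobase of exon, which allows genes to be compared, the 4 group Ib levels summed to 21.9, 24.7 and 17.1 CPM per kb in BP12-2, and to 9.13, 19.1 and 115 CPM per kb in WT. The makeup of the sum differed as well as its size. bHLH39 was the largest component in every BP12-2 library, with 32.9%, 53.6% and 44.5% of the sum in replicates 1 to 3, and in WT replicate 1, with 46.4%. bHLH100 was the largest in WT replicate 2, with 46.0%, and in WT replicate 3, with 40.2%. These shares are descriptions of 6 libraries and were not tested.

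**Figure D2:**
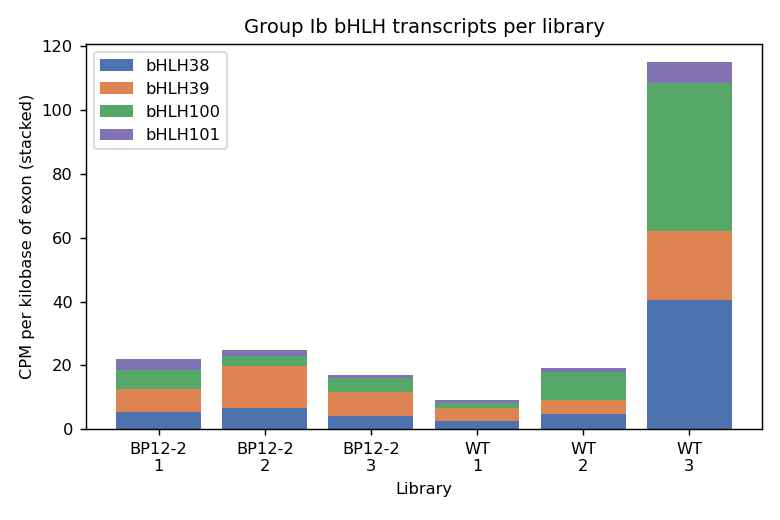
Stacked bars give the 4 group Ib bHLH levels in each library in CPM per kilobase of exon, from 0, with BP12-2 libraries on the left and WT libraries on the right. The bar of WT replicate 3 reaches 115, and the other 5 lie between 9.13 and 24.7.

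Reads of bHLH38, bHLH101 and FRO3 could in part belong to neighbours, since their exons overlap those of counted genes by 386, 79 and 24 bases and the sources used here do not say whether strand was used in counting. The neighbours were not highest in WT replicate 3. PIP5K4, beside bHLH38, was at 9.78, 9.63 and 11.5 CPM in BP12-2 and 7.99, 8.40 and 11.2 CPM in WT, GLU1, beside bHLH101, at 854, 752 and 866 CPM in BP12-2 and 792, 739 and 597 CPM in WT, and LPR1, beside FRO3, at 15.1, 12.9 and 11.9 CPM in BP12-2 and 14.8, 11.7 and 9.52 CPM in WT. None of the 10 genes shared a stretch of 50 bases with another gene (0%).

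FIT (AT2G28160, chromosome 2, 12004658 to 12006276, plus strand), the root bHLH factor with which the group Ib proteins pair, did not follow them. It was at 3.19, 5.11 and 4.07 CPM in BP12-2, and at 4.38, 1.86 and 3.31 CPM in WT. WT replicate 2 was the lowest library, and the other 5 overlapped between the groups. WT replicate 3 had 1.06 times the mean of WT replicates 1 and 2, against 11.0 times for bHLH38, 8.93 times for bHLH100, 7.11 times for bHLH101 and 5.0 times for bHLH39. The log2 fold change of FIT was 0.39 ± 0.32 (edgeR quasi-likelihood adjusted p = 0.567) and 0.46 without WT replicate 3.

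OPT3 (AT4G16370, chromosome 4, 9247302 to 9250343, minus strand) was the most abundant of the 10. It was at 252, 205 and 217 CPM in BP12-2, and at 232, 362 and 545 CPM in WT. The BP12-2 libraries were close together, WT replicate 1 lay among them and WT replicates 2 and 3 above them. OPT3 averaged 225 ± 24.5 CPM in BP12-2 and 380 ± 157 CPM in WT (SD, n = 3 each). Its change of -0.76 ± 0.28 (log2) missed the threshold of the edgeR quasi-likelihood test (adjusted p = 0.213). It was -0.40 without WT replicate 3 (adjusted p = 0.387) and -0.50 among the 4 libraries that share a clock pattern (adjusted p = 0.239), so OPT3 kept its sign, and it had the smallest WT excess in replicate 3 after PYE among the 8 genes highest there, at 1.83 times the mean of WT replicates 1 and 2. A term for the clock pattern gave -0.70 (adjusted p = 0.0660). The summed markers of the phloem, where OPT3 acts, were at 463, 384 and 405 CPM in BP12-2 and at 393, 497 and 446 CPM in WT. Singly, their log2 fold changes were 0.06 for SUC2, -0.29 for AHA3, -0.10 for APL and -0.51 for CALS7, none past the threshold. The part of these markers in the OPT3 result was not tested.

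BTS (AT3G18290, chromosome 3, 6273966 to 6280562, plus strand) was at 202, 141 and 161 CPM in BP12-2, and at 136, 209 and 394 CPM in WT. WT replicate 3 was highest, and the other 5 libraries overlapped. The log2 fold change was -0.55 ± 0.35 (edgeR quasi-likelihood adjusted p = 0.454) and -0.04 ± 0.22 without WT replicate 3 (adjusted p = 0.963).

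PYE (AT3G47640, chromosome 3, 17567126 to 17569394, plus strand) varied least, at 14.8, 12.8 and 12.9 CPM in BP12-2, and at 12.8, 12.2 and 22.3 CPM in WT. Apart from WT replicate 3 the libraries of both groups lay at one level. On the log2 scale the change was -0.24 ± 0.24 (edgeR quasi-likelihood adjusted p = 0.646) and 0.12 ± 0.14 without WT replicate 3 (adjusted p = 0.727).

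FRO3 (AT1G23020, chromosome 1, 8149868 to 8153796, minus strand), a ferric reductase of mitochondria, was at 57.4, 48.1 and 41.1 CPM in BP12-2, and at 37.6, 44.0 and 97.5 CPM in WT. The groups overlapped, with WT replicate 3 highest and WT replicate 1 lowest. As a log2 ratio, BP12-2 over WT was -0.30 ± 0.34 (edgeR quasi-likelihood adjusted p = 0.690) and 0.26 ± 0.16 without WT replicate 3 (adjusted p = 0.498).

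FER1 (AT5G01600, chromosome 5, 227953 to 230051, minus strand), which encodes a plastid ferritin, was among the least abundant. It was at 0.998, 3.76 and 5.24 CPM in BP12-2, and at 3.22, 1.93 and 0.903 CPM in WT. The lowest library of each group was the one with the shared clock pattern, BP12-2 replicate 1 and WT replicate 3, and the groups overlapped. These levels rest on 10, 25 and 90 reads in BP12-2 and 25, 26 and 15 reads in WT. The exact Poisson 95% intervals, which cover counting error only, were 0.479 to 1.84 CPM for BP12-2 replicate 1 and 0.506 to 1.49 CPM for WT replicate 3, against 4.21 to 6.44 CPM for BP12-2 replicate 3. The log2 fold change was 0.88 ± 0.61 (edgeR quasi-likelihood adjusted p = 0.494), 0.47 without WT replicate 3 and 0.25 without BP12-2 replicate 3.

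**Figure D3:**
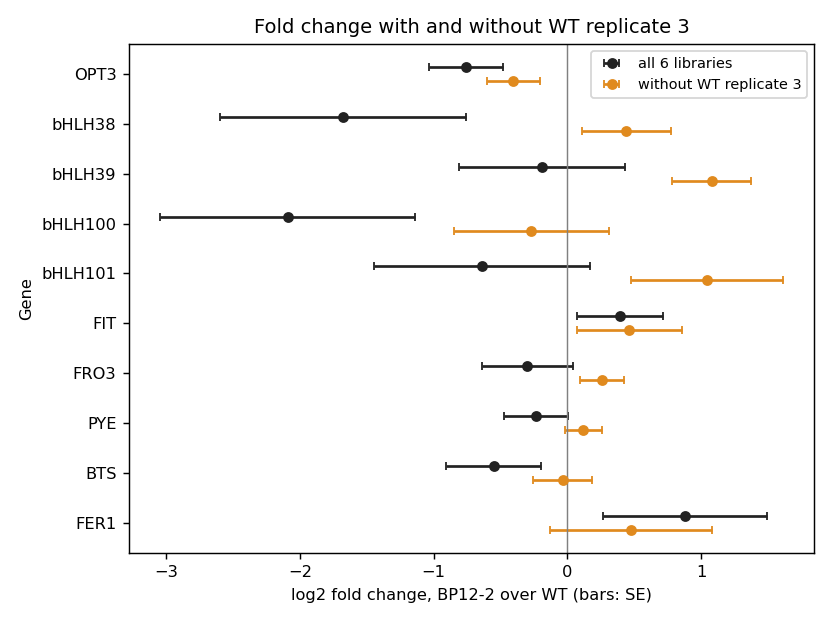
Log2 fold change of BP12-2 over WT for each of the 10 genes, with bars of 1 standard error, from all 6 libraries (black) and without WT replicate 3 (orange). bHLH38, bHLH39, bHLH101, FRO3 and PYE move from the negative to the positive side of 0, and bHLH100 moves from -2.09 to -0.27.

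Replicates differed more within WT than within BP12-2 for all of these genes except FER1. The coefficient of variation was 133% for bHLH38, 127% for bHLH100, 116% for bHLH101 and 99.0% for bHLH39 in WT, and 23.5%, 31.5%, 57.0% and 36.0% for the same genes in BP12-2. FER1 had 64.6% in BP12-2 and 57.5% in WT. Between the highest and the lowest library, bHLH100 differed 29.7-fold, bHLH38 16.2-fold, bHLH101 7.95-fold, FER1 5.80-fold and bHLH39 5.10-fold, and PYE 1.83-fold.

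BP12-2 replicate 1, which shares the clock pattern of WT replicate 3, was the highest BP12-2 library for 6 of the 8 genes highest in WT replicate 3 (OPT3, bHLH100, bHLH101, FRO3, PYE and BTS), and the second highest of all libraries for 3 of them (bHLH101, FRO3 and PYE). BP12-2 replicate 1 and WT replicate 3 had a correlation of 0.47 over genes, and the share of all genes with such a ranking was not counted. The part of the clock pattern in the levels of the 8 genes was not tested. WT replicate 3 exceeded BP12-2 replicate 1 7.78-fold for bHLH100, 7.45-fold for bHLH38, 2.99-fold for bHLH39, 2.16-fold for OPT3, 2.00-fold for bHLH101, 1.95-fold for BTS, 1.70-fold for FRO3 and 1.51-fold for PYE. FIT and FER1 were at 1.04 and 0.905 times the BP12-2 replicate 1 level. With BP12-2 replicate 1 over WT replicate 3 the median log2 ratio of the 10 genes was -0.93, and with 1 library per group this has no test.

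**Figure D4:**
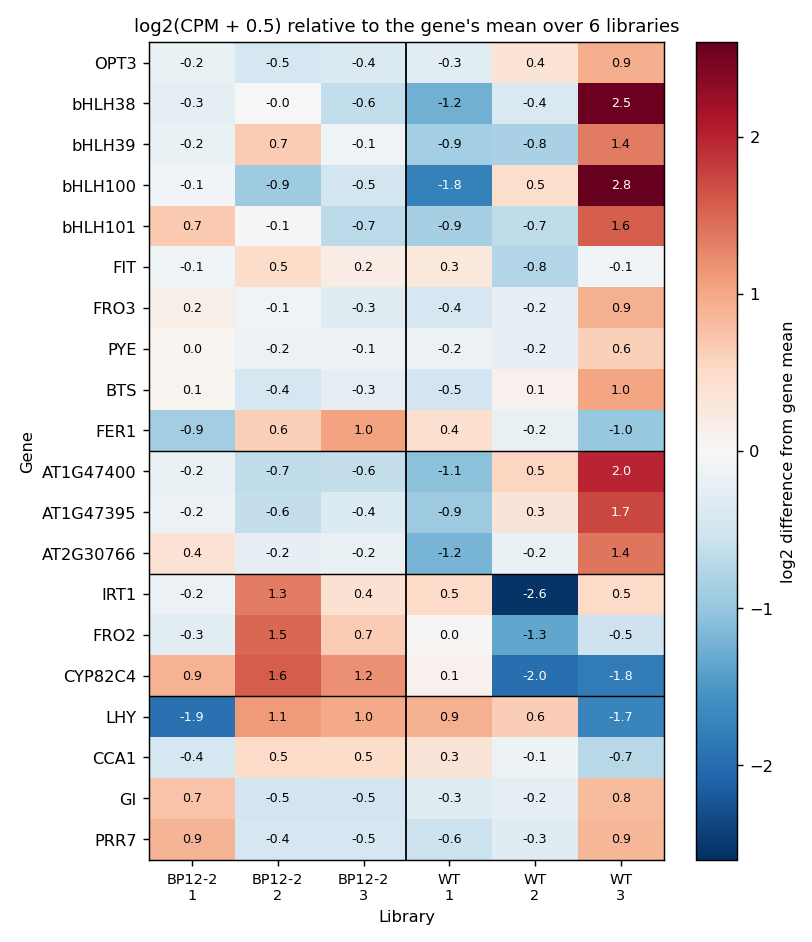
Colour and printed value give log2(CPM + 0.5) minus the mean of the gene over the 6 libraries, with BP12-2 left and WT right of the vertical line. From the top, blocks hold the 10 genes, 3 genes of the regulator list given by code (IMA1, IMA2 and IMA3), 3 uptake genes and 4 clock genes. WT replicate 3 is highest for 8 of the 10, and LHY is low in BP12-2 replicate 1 and WT replicate 3.

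Ordered by mean level over the 6 libraries per kilobase of exon, OPT3 came first with 112 ± 48.8 CPM per kb (SD over 6 libraries) and BTS second with 46.1 ± 21.4. OPT3 was above BTS, and BTS above FRO3 (19.5 ± 7.98), in all 6 libraries. FRO3 was above bHLH100 (11.7 ± 17.1) in 5 of 6. The next 3 in the order, bHLH100, bHLH38 (10.7 ± 14.7) and PYE (10.6 ± 2.79), did not differ beyond their spread: bHLH100 was above bHLH38 in 4 of 6 libraries, and bHLH38 above PYE in 1 of 6. PYE was above bHLH39 (9.72 ± 6.68) in 4 of 6, and bHLH39 above FIT (2.65 ± 0.82) in all 6. At the low end FIT, bHLH101 (2.44 ± 2.25) and FER1 (1.88 ± 1.20) overlapped, with FIT above bHLH101 in 4 of 6 libraries and bHLH101 above FER1 in 2 of 6.

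Profiles most like that of OPT3 were sought among 14817 genes with a mean of at least 5 CPM, by the root mean square difference of centred log2 CPM over the 6 libraries. The nearest were TCTP (0.15), NAS4 (0.15), AER (0.16), AT2G16660 (0.17) and BTS (0.18). NAS4, a nicotianamine synthase gene, and BTS are also listed here as iron genes, and TCTP was at 983, 892 and 846 CPM in BP12-2 and at 1049, 1489 and 1790 CPM in WT. For FER1 the nearest of 14818 genes were MEE3 (0.19), ELIP2 (0.25), AT1G05540 (0.28), AT4G15430 (0.28) and AT1G65870 (0.28). ELIP2, a light-induced protein of the chlorophyll-binding family, was at 6.19, 22.1 and 21.6 CPM in BP12-2 and at 20.0, 8.32 and 4.10 CPM in WT, low in the same libraries as FER1.

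The wider iron network was read through 55 other genes in 5 lists. Of these 46 were tested and 0 passed the edgeR quasi-likelihood test, 16 (34.8%) had an unadjusted p under 0.05 (10 higher and 6 lower), against 18.2% of all genes tested, and fitted changes were positive for 30 and negative for 16, with a median of 0.10. BP12-2 lay wholly above WT for 10 of the 46, where 12.1% of all genes tested did so, and wholly below for 2, where 12.2% did. Of 12 other regulators tested of 15, 8 changes were positive and 4 negative, with a median of 0.07. The most abundant of these, ILR3, a subgroup IVc factor and target of BTS, was at 77.0, 71.5 and 71.4 CPM in BP12-2 and at 71.4, 72.1 and 64.9 CPM in WT, with a log2 fold change of 0.08, and bHLH115, a close relative of ILR3, and NAI1, a bHLH factor of endoplasmic reticulum bodies, were at -0.05 and 0.05.

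Among the listed regulators are IMA1 (AT1G47400), IMA2 (AT1G47395) and IMA3 (AT2G30766), named after their values were seen. RefSeq gives no symbol for these 3 genes, and they are given here by code. They had their highest level in WT replicate 3 and their lowest in WT replicate 1. For AT1G47400 and AT1G47395 the libraries between stood in the order seen for bHLH100, which differs from that of bHLH38, bHLH39 and bHLH101. AT1G47400 was at 10.7, 7.52 and 7.74 CPM in BP12-2, and at 5.54, 18.1 and 49.8 CPM in WT. AT1G47395 was at 12.0, 8.57 and 10.3 CPM in BP12-2 and at 6.70, 17.1 and 45.8 CPM in WT, and AT2G30766 at 40.7, 26.8 and 27.8 CPM in BP12-2 and at 13.3, 27.9 and 82.9 CPM in WT. Each was over 2-fold above every other library in WT replicate 3, and WT replicate 2 was second highest for AT1G47400 and AT1G47395. None passed the edgeR quasi-likelihood test, with log2 fold changes of -1.54 ± 0.65, -1.20 ± 0.58 and -0.40 ± 0.57 (adjusted p = 0.270, 0.323 and 0.753). AT1G47400 and AT1G47395 share 1.37% and 1.28% of their 50-base words with other genes, and AT2G30766 overlaps exons of AT2G30760 and CYP71A13 by 408 bases in all. CYP71A13 was itself highest in WT replicate 3, at 12.9, 6.02 and 7.74 CPM in BP12-2 and at 16.5, 21.1 and 24.0 CPM in WT, and reads in the overlap cannot be told apart.

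WT replicate 3 was the highest library for 2 of the 9 uptake genes tested, many of which are known targets of FIT. CYP82C4, a cytochrome P450 of the coumarins that mobilise iron, was at 4.79, 7.97 and 5.94 CPM in BP12-2, and at 2.58, 0.223 and 0.301 CPM in WT. All BP12-2 libraries were above all WT libraries, and WT replicates 2 and 3 held 3 and 5 reads. Its log2 fold change of 2.91 ± 0.69 missed the threshold (edgeR quasi-likelihood adjusted p = 0.107). It passed the edgeR exact test (2.68, adjusted p = 0.0331), the quasi-likelihood test with a term for the clock pattern (2.91, adjusted p = 0.0380) and the same test without WT replicate 1 (4.48, adjusted p = 0.0350). With any other single library left out it missed (quasi-likelihood adjusted p from 0.122 to 0.311). It also missed with DESeq2 (adjusted p = 0.149), limma voom (0.0718) and among the 4 libraries that share a clock pattern (quasi-likelihood, 0.137). CYP82C4 shares 8.98% of its 50-base words with other genes, so part of its count is uncertain.

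IRT1, the iron transporter of the root surface, and FRO2, the ferric reductase beside it, were named after their values were seen. IRT1 was at 12.8, 36.4 and 18.8 CPM in BP12-2, and at 20.2, 2.01 and 20.4 CPM in WT, with a log2 fold change of 0.66 ± 0.71 (edgeR quasi-likelihood adjusted p = 0.669). FRO2 was at 5.79, 21.4 and 11.6 CPM in BP12-2 and at 7.34, 2.53 and 4.82 CPM in WT, with 1.42 ± 0.51 (adjusted p = 0.209). WT replicate 2 was the lowest library and BP12-2 replicate 2 the highest for FIT, IRT1, FRO2 and CYP82C4 alike. IRT2 was also lowest in WT replicate 2 but highest in BP12-2 replicate 1. This order was picked after the values were seen, and the share of all genes that show it was not counted. The 13 root markers summed to 315, 363 and 338 CPM in BP12-2 and to 348, 286 and 258 CPM in WT. The sum was highest in BP12-2 replicate 2, and singly RSL4, SCR, CASP1 and CASP2 were highest there. EXPA7, EXPA18 and COBL9 were highest in BP12-2 replicate 1, SHR and GL2 in BP12-2 replicate 3, and the others in WT libraries. BP12-2 lay wholly above WT for 2 of the 13, EXPA7 and EXPA18, where 12.1% of all genes tested did so. Fitted changes were positive for 9 root markers and negative for 4. An unadjusted p under 0.05 (edgeR quasi-likelihood) was found for 5, all higher in BP12-2 (38.5%, against 9.03% of all genes tested). The part of these markers in the values of the uptake genes and FIT was not tested.

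Of the 9 uptake genes tested of 11, 5 changes were positive and 4 negative, with a median of 0.31. AHA2, the proton pump that acidifies the root surface, was lower in every BP12-2 library, at 575, 512 and 515 CPM in BP12-2 and 639, 642 and 676 CPM in WT (log2 fold change -0.29 ± 0.10, edgeR quasi-likelihood adjusted p = 0.193). F6'H1, which makes the coumarin scopoletin, was at 35.5, 11.1 and 20.5 CPM in BP12-2 and at 34.0, 44.7 and 53.0 CPM in WT (-0.96 ± 0.36, adjusted p = 0.220). PDR9, an exporter of phenolic compounds, had a log2 fold change of -0.07.

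Genes of iron chelation and transport had changes of both signs, 10 positive and 8 negative, among 18 tested of 20 and a median of 0.08. VTL5 and VTL2, relatives of the vacuolar iron transporter VIT1, were higher in every BP12-2 library. VTL5 was at 125, 94.5 and 96.3 CPM in BP12-2, and at 66.8, 29.9 and 47.5 CPM in WT, with a log2 fold change of 1.14 ± 0.27 (edgeR quasi-likelihood adjusted p = 0.108). VTL2 was at 8.38, 12.3 and 14.1 CPM in BP12-2 and at 7.08, 5.20 and 4.04 CPM in WT, with 1.14 ± 0.26 (adjusted p = 0.103). Both passed with DESeq2 (adjusted p = 0.00381 for VTL5 and 0.0103 for VTL2), with the edgeR exact test (0.00645 and 0.00764) and with a term for the clock pattern (0.0455 and 0.0183). Neither passed with limma voom, with the replicate number as a block or among the 4 libraries that share a clock pattern. With any single library left out both missed as well, at log2 fold changes of 0.89 to 1.44 for VTL5 and 0.95 to 1.34 for VTL2.

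NAS2 and NAS4, nicotianamine synthase genes, were separated between the groups in opposite directions, nicotianamine being the chelator that carries iron within the plant. NAS2 was at 28.6, 45.6 and 31.7 CPM in BP12-2 and at 26.1, 23.9 and 17.3 CPM in WT (log2 fold change 0.65 ± 0.21, edgeR quasi-likelihood adjusted p = 0.178). NAS4 was at 25.6, 28.7 and 28.8 CPM in BP12-2 and at 31.6, 44.7 and 65.8 CPM in WT (-0.78 ± 0.24, adjusted p = 0.160). NAS1, the most abundant, overlapped between the groups with 0.20, and so did NRAMP4, a vacuolar iron exporter, at 105, 81.7 and 93.2 CPM in BP12-2 and 95.3, 180 and 173 CPM in WT (-0.68 ± 0.23, adjusted p = 0.194).

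The ferric reductase genes other than FRO2 and FRO3 gave 4 positive changes among 4 tested of 6, with a median of 0.88. FRO4, named after its values were seen, was at 8.98, 0.150 and 0.873 CPM in BP12-2 and at 0.258, 0.743 and 2.11 CPM in WT. Its reads in BP12-2 were 90, 1 and 15, and its log2 fold change was 1.51 ± 1.11 (edgeR quasi-likelihood adjusted p = 0.521). FRO6, a reductase gene of leaves, was at 520, 240 and 232 CPM in BP12-2, and at 174, 108 and 186 CPM in WT, with a log2 fold change of 1.08 ± 0.35 (edgeR quasi-likelihood adjusted p = 0.171) that was 0.60 without BP12-2 replicate 1. It passed with DESeq2 (adjusted p = 0.0355) and with a term for the clock pattern (adjusted p = 0.0386). It missed with the edgeR exact test, with limma voom and among the 4 libraries that share a clock pattern. With any single library left out it missed as well. FRO7, the reductase of chloroplasts, was at 250, 145 and 143 CPM in BP12-2 and at 129, 87.3 and 122 CPM in WT (0.67 ± 0.25, adjusted p = 0.218), and 0.35 without BP12-2 replicate 1. Both share 50-base words with other genes (16.2% of FRO6 and 24.5% of FRO7), so their split is uncertain. FRO8 overlapped, at 84.6, 35.4 and 46.8 CPM in BP12-2 and 35.7, 45.0 and 79.2 CPM in WT, high in BP12-2 replicate 1 and WT replicate 3. Its log2 fold change was 0.06 ± 0.38. The 6 leaf mesophyll markers lay higher in every BP12-2 library when summed. Singly, LHCB6, PSAF and CA1 did so, while RBCS1A, CAB1 and RCA overlapped between the groups. BP12-2 replicate 1 was the highest library for FRO6 and FRO7. Within BP12-2, it was also the highest for CAB1, LHCB6 and PSAF but the lowest for RBCS1A, CA1 and RCA. The part of these markers in the FRO6 and FRO7 values was not tested.

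The other 3 ferritin genes had positive changes with a median of 0.33, and 2 of them were separated between the groups. FER3 was at 17.5, 21.5 and 18.9 CPM in BP12-2 and at 16.6, 14.9 and 14.5 CPM in WT (log2 fold change 0.33 ± 0.12, edgeR quasi-likelihood adjusted p = 0.210). FER4 was at 9.38, 8.72 and 10.9 CPM in BP12-2 and at 7.60, 8.25 and 6.02 CPM in WT (0.43 ± 0.17, adjusted p = 0.237). FER2, the ferritin of seeds, was at 0.898, 1.81 and 1.75 CPM in BP12-2 and 2.19, 0.892 and 1.33 CPM in WT. FER3 was thus the most abundant ferritin at 13.6 CPM per kb over the 6 libraries, before FER4 with 6.78, FER1 with 1.88 and FER2 with 1.29.

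**Figure D5:**
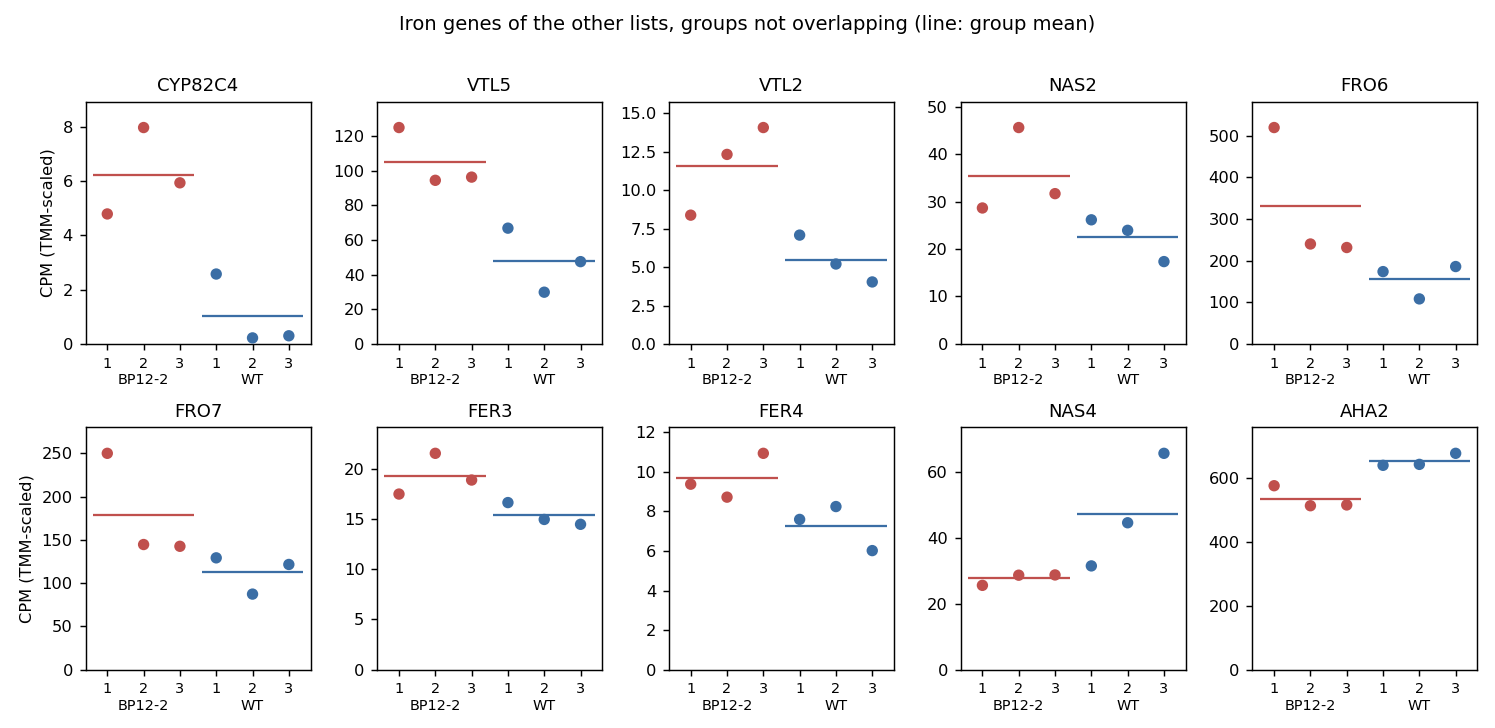
Level per library in TMM-scaled CPM, linear axes from 0, for 10 of the 12 iron genes of the other lists whose BP12-2 libraries (red) and WT libraries (blue) did not overlap; lines are group means. The 8 genes from CYP82C4 to FER4 are higher in BP12-2, and NAS4 and AHA2 are lower.

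With a term for the clock pattern, 7 of these 46 genes passed (5 higher and 2 lower), against the 5.1% of all genes tested. The higher ones were CYP82C4, VTL2, VTL5, NAS2 (adjusted p = 0.0432) and FRO6, and the lower ones F6'H1 (adjusted p = 0.0462) and YSL1, a transporter gene for metals bound to nicotianamine. DESeq2 called 3 of the 46 (VTL2, VTL5 and FRO6) and the edgeR exact test called 3 (CYP82C4, VTL2 and VTL5). Limma voom called 0 of the 46. None of these settings called any of OPT3, the group Ib genes, FIT, FRO3, PYE, BTS or FER1.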

How the data were processed

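Seedling RNA was sequenced from 6 libraries. Per the series design text and the submitters' processing notes, paired reads were aligned to TAIR9 with Bowtie and counted per gene with HTSeq. The deposited values are whole-number counts with no normalization by the authors. Tool versions, strand use and counting mode: not given in the sources used here. Of 32313 codes, 8089 were at 0 in every library. In R 4.3.3, edgeR 4.0.16 scaled libraries by TMM, filterByExpr kept 19436 genes (minimum count 10, minimum total 15), and the quasi-likelihood test was two-sided with Benjamini-Hochberg adjustment over all genes tested and a threshold of 0.05. All libraries differed by more than sampling noise (smallest chi-square per degree of freedom 10.9). DESeq2 1.42.0, the edgeR exact test, limma 3.58.1 (voom), other scalings and filters, a replicate block, left-out libraries and the clock term were alternatives. The tests were run on simulated data with known changes first. Levels per kilobase used the TAIR10.1 exons, since no TAIR9 genome was used here; coordinates and promoter windows are TAIR10.1 throughout, and genes were matched by code. The members, lists, clock term and tests were chosen with earlier results of these data known. The 10 members were always named; other iron genes were named if past the threshold, among the 3 most abundant of a list with no such gene, or if the groups did not overlap with a change of at least 1.5-fold. For the likeness search, log2 CPM used a prior count of 2. IMA1, IMA2 and IMA3, and genes outside the lists without a RefSeq symbol, are given by code.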

Additional observations from a re-analysis of the deposited data

How the results depend on the processing

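Of the 10 members, 0 were called under each alternative run. The number of genes called over the whole table was 13, and 56 with no filter, 620 with DESeq2, 841 with the edgeR exact test, 22 with limma voom, 992 with the clock term, 38 among the 4 libraries that share a clock pattern and 463 at a threshold of 0.10. Leaving out 1 library gave 0 to 56 (BP12-2 replicates 1 to 3 left out in turn: 9, 1 and 0; WT replicates 1 to 3: 56, 1 and 2). With the replicate number as a block 0 genes were called (2558 at an unadjusted p under 0.05), and same-numbered libraries did not deviate together (correlations of -0.31, 0.06 and -0.30). BP12-2 replicate 1 and WT replicate 3, which share a clock pattern, had a correlation of 0.47. Because that pattern enters all of these values, they cannot show whether the numbers pair the samples, which the labels do not state.

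The median log2 fold change of the members, -0.43, was 0.25 among these 4 libraries and 0.35 without WT replicate 3, and ranged from -0.69 to 0.35 over left-out libraries. In these 4 libraries the sign also turned for bHLH38 (0.38), bHLH39 (1.20), bHLH101 (0.44), FRO3 (0.12), PYE (0.049), ILR3 (-0.0056) and NAI1 (-0.0094). For bHLH39 it turned with limma voom (0.040), the replicate block (0.19) and the clock term (0.10). Between BP12-2 replicate 1 and WT replicate 3 alone, FIT was at -0.046 and FER2 at -0.38. Over left-out libraries the range was -2.14 to 0.44 for bHLH38, -0.56 to 1.08 for bHLH39, -1.24 to 1.04 for bHLH101, -0.54 to 0.26 for FRO3, -0.40 to 0.12 for PYE, -0.020 to 0.15 for NAI1, -0.38 to 0.46 for FRO8 and -0.17 to 0.40 for FER2. The cause was not tested. A minimum mean of 5 CPM removed bHLH101, FIT and FER1 before testing. The counts of FER1, bHLH101 and FIT, down to 10, 7 and 25 reads in a library, limit what their values can show.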

Other observations

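The 26 genes over 2-fold above every other library in WT replicate 3 (chosen after their values were seen) include 21 outside the iron lists. A place outside these lists does not show that a gene is unrelated to iron. AT2G20870 led the 26, at 4.39, 0.752 and 0.931 CPM in BP12-2 and at 1.80, 1.11 and 32.9 CPM in WT, 7.49-fold above the next library. AT2G14247 was at 13.0, 6.02 and 9.37 CPM in BP12-2 and at 2.32, 7.88 and 50.5 CPM in WT, AT5G05250 at 80.8, 48.9 and 46.9 CPM in BP12-2 and at 35.03, 73.5 and 167 CPM in WT, and ORG1 at 89.7, 42.3 and 46.2 CPM in BP12-2 and at 39.9, 60.6 and 184 CPM in WT. The last 3 were lowest in WT replicate 1, as bHLH38, bHLH100, BTS and FRO3 were. Also among the 26, CKX4, a cytokinin oxidase gene, was at 4.49, 1.20 and 4.48 CPM in BP12-2 and at 3.74, 4.01 and 9.76 CPM in WT, and GA2OX2, a gibberellin oxidase gene, at 3.29, 1.81 and 4.02 CPM in BP12-2 and at 3.74, 4.09 and 9.15 CPM in WT. The other libraries held 0 to 37 genes over 2-fold above all others.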
